A study of Mus musculus with 18 samples.

Results

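The genes described here are 9 components and receptors of the complement system in the mouse striatum, namely C1qa, C1qb, C1qc, C3, C4b, Itgam, C3ar1, C5ar1 and Serping1. They were picked by name as a functional group, and each was read from the row of the count table whose Ensembl identifier carries that symbol, so they make up 9 of the 55421 genes in the table. All 9 had enough reads to be among the 20914 genes tested. RNA-seq counts were available for the striatum of 18 mice of 12 to 14 months, 1 library per mouse, with the strain given as C57BL/6 in the labels and as C57BL/6J in the study's methods. Wild type (WT) mice, zQ175 mice and zQ175:CK2a'(+/-) mice had 5 libraries each, and CK2a'(+/-) mice had 3. zQ175 is a knock-in model of Huntington's disease in which the endogenous huntingtin gene carries an expanded CAG repeat, and CK2a'(+/-) mice lack 1 allele of the kinase subunit CK2 alpha prime that Csnk2a2 encodes. The CK2a'(+/-) line came from a mixed 129/SvEv and C57BL/6J background and was bred for many generations with WT and zQ175 mice before the study's animals were taken from it, and all libraries were sequenced together on 1 lane. The purpose of the 4 genotypes was to ask how the loss of 1 CK2a' allele bears on the changes that the zQ175 allele brings.

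Complement is a cascade of plasma proteins that is also produced inside the brain. C1q, built from A, B and C chains, binds its targets and starts the classical pathway through C4 and C3, and fragments of C3 and C5 act on receptors of immune cells. In the brain the C1q chains are made mainly by microglia, C4 is made in good part by astrocytes and oligodendrocytes, and tagging of synapses by C1q and C3 with uptake through the microglial receptor CR3 is a known route of synapse removal.

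Total counts ranged from 13612381 to 22702547 per library, with a median of 18005044. Csnk2a2 was at 29.4 to 37.5 CPM (counts scaled to the same library total) in the 10 mice with both alleles and at 14.7 to 19.9 CPM in the 8 mice with 1 allele, so the libraries matched their CK2a' labels. Y-linked RNA (at least 100 reads of Ddx3y, a gene on the Y chromosome) was present in 1 of 5 WT, 3 of 5 zQ175, 2 of 3 CK2a'(+/-) and 1 of 5 zQ175:CK2a'(+/-) libraries, so the sexes were unevenly spread over the genotypes. The summed level of 5 choroid plexus epithelium markers was above 100 CPM in 4 libraries (WT replicates 1 and 3, CK2a'(+/-) replicate 1 and zQ175:CK2a'(+/-) replicate 2, at 975 to 3083 CPM) and between 11.5 and 21.6 CPM in the others. zQ175 replicate 5 had 319 CPM of summed cortical excitatory neuron markers, against 22.6 to 93.0 CPM in the other 17 libraries.

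The 3 C1q genes lie side by side on chromosome 4 of GRCm38, all on the minus strand, within 18.7 kb. C1qb spans chr4:136880129-136886187, C1qc spans chr4:136889804-136893065 and C1qa spans chr4:136895917-136898803, with 3616 bases between C1qb and C1qc and 2851 bases between C1qc and C1qa. Promoter windows of 250 bases before to 50 bases after the start were found in RefSeq (GRCm38.p6) for 6 of the 9 genes, C1qb, C1qc, C3, C3ar1, C5ar1 and Itgam. The stretches before C1qb (chr4:136886201-136886450, 250 bases) and before C1qc (chr4:136893066-136893164, 99 bases) are printed because these genes moved together in the data. They run 5′ to 3′ along the minus strand, and capitals mark ACTTCCT, which is AGGAAGT on the other strand, a sequence of the kind that Ets factors such as the myeloid factor PU.1 bind.
C1qb: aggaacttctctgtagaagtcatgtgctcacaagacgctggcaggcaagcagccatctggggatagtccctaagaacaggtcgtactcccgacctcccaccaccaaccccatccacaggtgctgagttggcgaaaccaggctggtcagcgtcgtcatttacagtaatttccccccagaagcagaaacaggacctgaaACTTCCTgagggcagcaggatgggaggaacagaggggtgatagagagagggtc
C1qc: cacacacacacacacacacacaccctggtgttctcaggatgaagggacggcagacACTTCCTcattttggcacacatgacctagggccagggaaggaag
AGGAAGT was present on either strand in the windows of 3 of the 6 genes, C1qb, C1qc and C5ar1, and in 9.35% of the 32851 mouse windows of the same length. GAGGAA, which shares letters with AGGAAGT, was present on either strand in C1qb, C1qc and Itgam and in 28.3% of all windows, and of these only the C1qc match overlapped an AGGAAGT match. A match of letters is a description and does not show that a factor binds there.

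CPM were divided by exon length (CPM per kb) where genes are compared with each other. Per length, the C1q chains were the most abundant of the 9 genes, with means over 18 mice of 25.8 CPM per kb for C1qb, 24.4 for C1qa and 15.2 for C1qc. C4b followed at 9.83 CPM per kb. Itgam (1.68), Serping1 (1.30), C3ar1 (0.560) and C3 (0.546) were far lower, and C5ar1 was the lowest at 0.195 CPM per kb, which rested on 3 to 14 reads per library. C1qb and C1qa did not differ beyond their spread, since the ratio of C1qa to C1qb per length was 0.954 ± 0.105 (SD, n = 18), whereas C1qc was lower than either in every mouse. C3ar1 and C3 also did not differ beyond their spread. Itgam shares 3450 of its 5024 exon bases with the overlapping gene Gm49368 on the same strand, which held 8 reads in all, so its level per length is a lower value if reads in shared exons were left uncounted, and is 5.38 CPM per kb over its own 1574 bases. C4b has a near-identical copy, C4a, with 16 to 55 reads per library, and reads that match both may be missing from their counts.

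**Figure D1:**
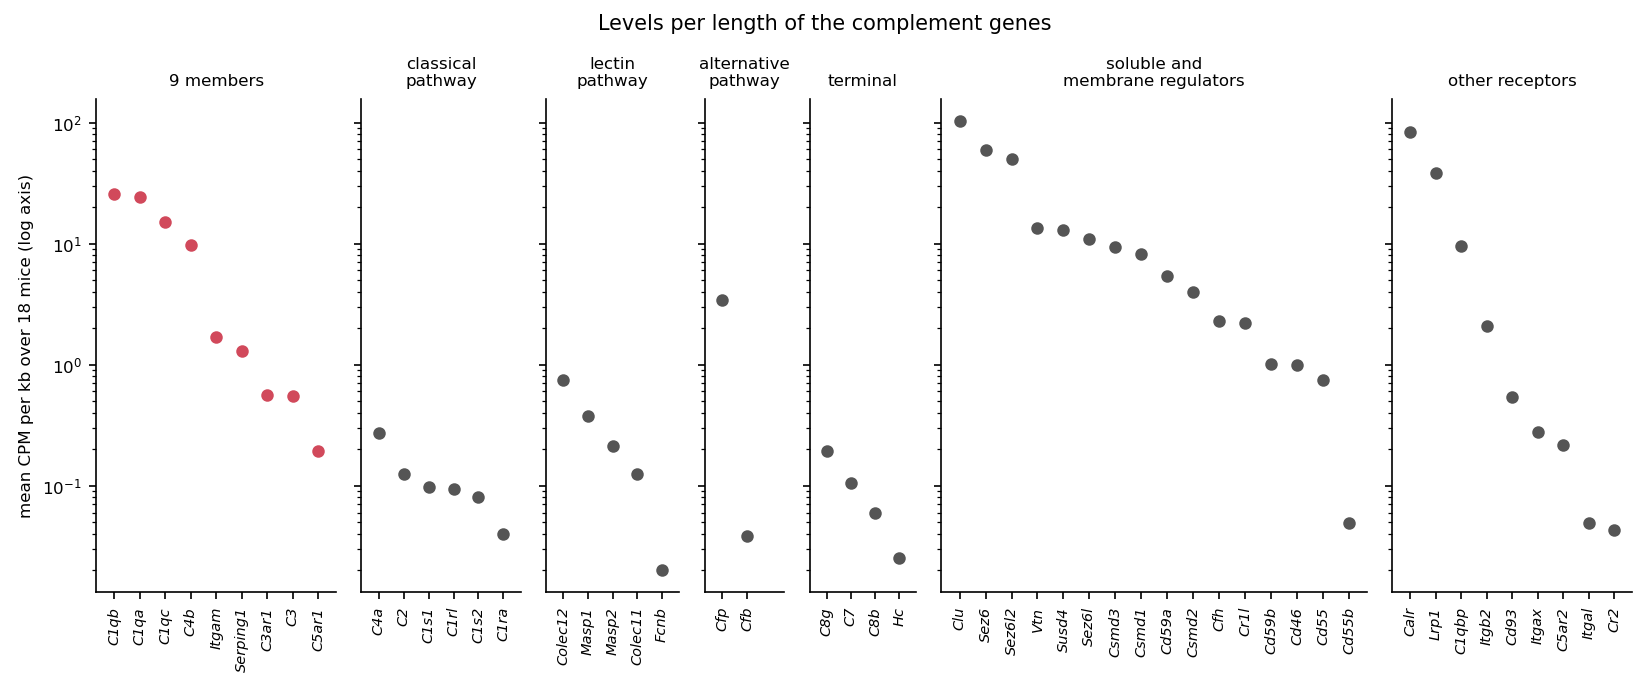
Mean level per exon length (CPM per kb, log axis) over the 18 mice of the 9 genes (red) and of the other complement genes by role (grey), for genes with a mean of at least 0.02 CPM per kb. The C1q chains stand at 15.2 to 25.8 CPM per kb, while the classical pathway proteases, C2 and the terminal components are all below 0.3 CPM per kb.

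The C1q chains, the recognition molecule of the classical pathway, had lower means in zQ175 mice than in WT mice, and their levels followed each other from mouse to mouse. C1qa was at 31.3, 26.0, 31.5, 28.7 and 32.5 CPM in WT replicates 1 to 5 and at 17.997, 23.8, 13.8, 27.2 and 13.8 CPM in zQ175 replicates 1 to 5. It was at 22.9, 27.9 and 27.0 CPM in the 3 CK2a'(+/-) mice and at 25.7, 27.2, 24.7, 28.7 and 26.4 CPM in the 5 zQ175:CK2a'(+/-) mice. The zQ175 mice were spread the most, and zQ175 replicates 1, 3 and 5 were below every other library of the series, while replicate 4 lay inside the WT range.

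C1qb was at 30.0, 27.3, 32.0, 35.1 and 43.7 CPM in WT mice and at 20.1, 26.8, 16.9, 28.0 and 18.1 CPM in zQ175 mice. It was at 21.8, 32.1 and 34.1 CPM in CK2a'(+/-) mice and at 23.9, 30.4, 24.0, 31.6 and 28.7 CPM in zQ175:CK2a'(+/-) mice. The same 3 zQ175 mice were again the lowest of all 18, and zQ175 and WT overlapped through zQ175 replicate 4 and WT replicate 2.

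C1qc was at 33.0, 30.7, 30.8, 36.2 and 43.5 CPM in WT mice and at 19.0, 22.9, 16.9, 34.6 and 20.1 CPM in zQ175 mice. It was at 23.2, 28.0 and 32.6 CPM in CK2a'(+/-) mice and at 31.9, 33.8, 29.7, 31.8 and 29.6 CPM in zQ175:CK2a'(+/-) mice. Here zQ175 replicate 4 was above 3 of the 5 WT mice, and the other 4 zQ175 mice were below all WT mice.

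**Figure D2:**
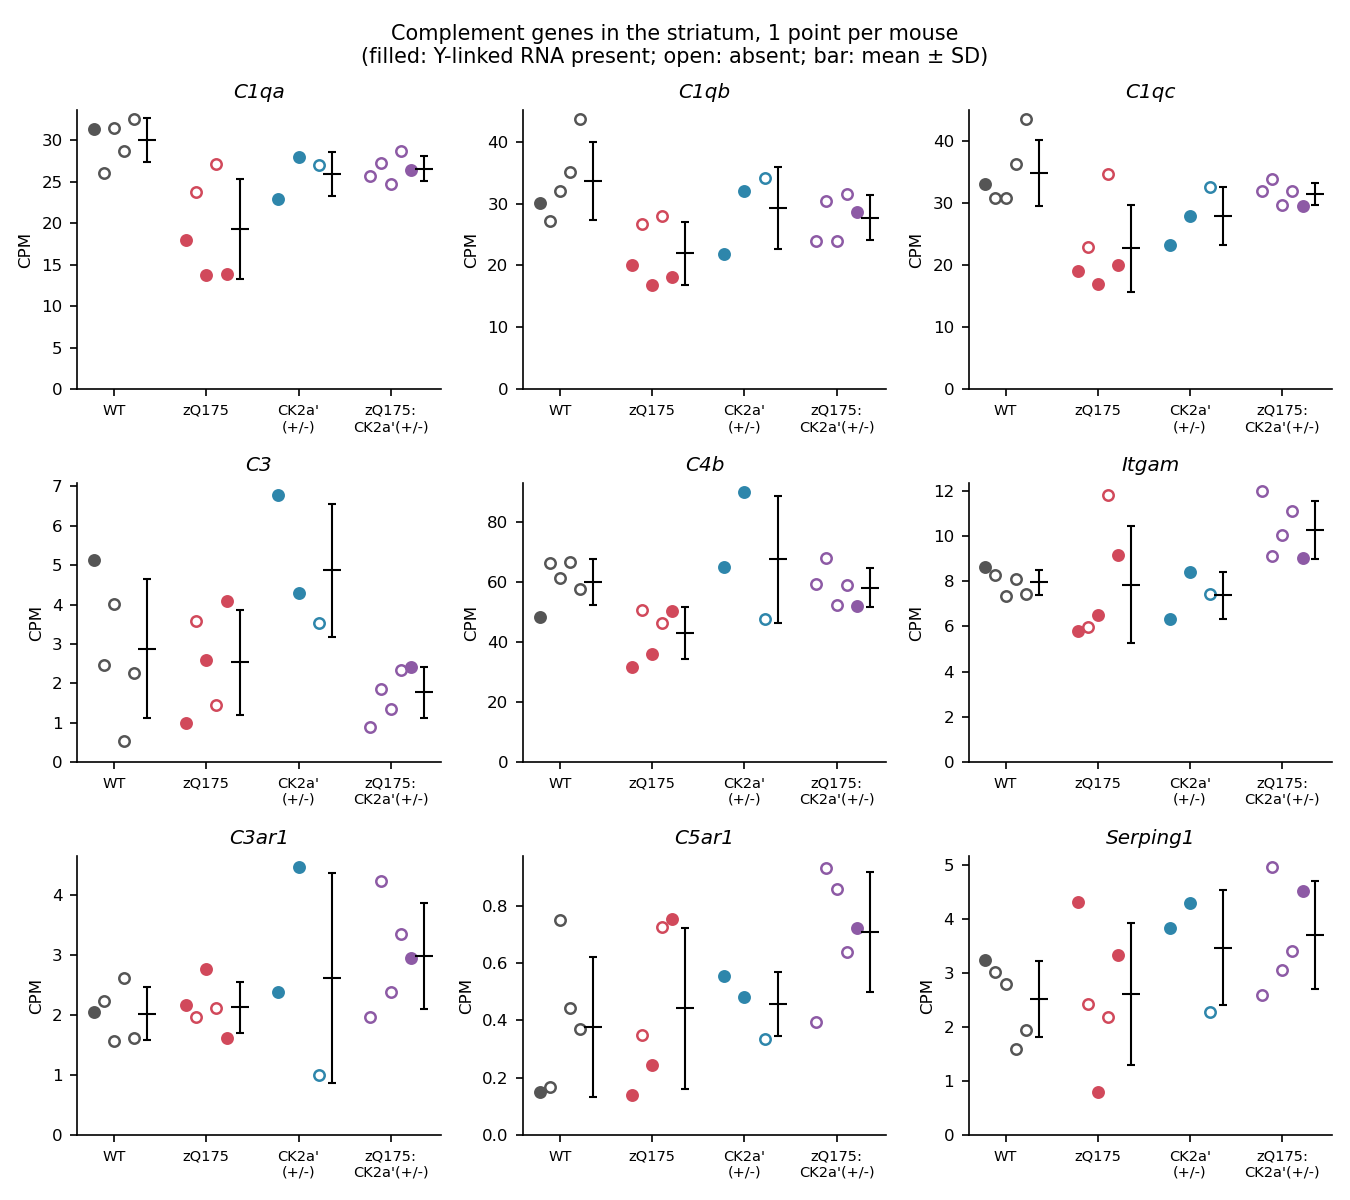
Level of each of the 9 genes in CPM in each mouse, by genotype, with filled points for libraries with Y-linked RNA, open points for those without, and mean ± SD beside them. For the C1q chains the 3 lowest of the 18 points are the filled zQ175 mice, between 13.8 and 20.1 CPM.

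In the test across all genes (edgeR quasi-likelihood, false discovery rate (FDR) below 0.1), 3 of the 9 genes passed between zQ175 and WT mice, against 1.1% of all genes tested and 0.712% in the lower direction, and 4 of 9 had an unadjusted p under 0.05, against 13.9%. They were C1qa, with a log2 fold change of -0.64 (95% interval -0.95 to -0.32), C1qb, with -0.62 (-0.95 to -0.28), and C1qc, with -0.62 (-0.94 to -0.30), at edgeR adjusted p = 0.0707, 0.0946 and 0.0819. DESeq2 called these 3 and C4b, 4 of 9 against 5.15% of genes. In bulk tissue, fewer C1q-producing cells and less C1q RNA per cell cannot be told apart.

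The calls were sensitive to single mice. When each of the 18 mice was left out in turn, the log2 fold changes stayed between -0.80 and -0.54 for C1qa, between -0.72 and -0.50 for C1qb and between -0.83 and -0.53 for C1qc, and the unadjusted edgeR p stayed at or below 0.00485. The adjusted values did not stay below the threshold, and the number of the 9 genes that passed was 0 without WT replicate 1, 3 or 5 or zQ175 replicate 1, 3 or 5. It was 1 without WT replicate 4, CK2a'(+/-) replicate 2, zQ175:CK2a'(+/-) replicate 1 or zQ175:CK2a'(+/-) replicate 3, and 2 to 4 without any of the other 8 mice. Over all genes in those fits, 0 passed without WT replicate 3 or zQ175 replicate 5, 0.048% without WT replicate 1 and 1.01% without WT replicate 5. The share was 0.37% and 0.639% without zQ175 replicates 1 and 3. It was 0.696% to 1.18% in the 4 fits where 1 of the 9 passed, and 0.826% to 2.82% in the 8 fits where 2 to 4 passed. With only the WT and zQ175 libraries in the fit, 0 genes passed (2337 at an unadjusted p under 0.05, by edgeR).

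The 3 zQ175 mice with the lowest C1q were the 3 zQ175 mice with Y-linked RNA. C1qa was 15.2 ± 2.42 CPM (SD, n = 3) in them and 23.8 and 27.2 CPM in the 2 zQ175 mice without it. The WT mouse with Y-linked RNA was at 31.3 CPM of C1qa, and the zQ175:CK2a'(+/-) mouse with it was at 26.4 CPM, both within the range of the other mice of their genotype. The 2 CK2a'(+/-) mice with it were at 22.9 and 27.9 CPM of C1qa, against 27.0 CPM in the mouse without it. They were at 21.8 and 32.1 CPM of C1qb against 34.1 CPM, and at 23.2 and 28.0 CPM of C1qc against 32.6 CPM. The summed level of 18 microglia markers split the same way in zQ175 mice, at 319 ± 14.8 CPM (SD, n = 3) with and at 389 and 404 CPM without Y-linked RNA, against 364 to 439 CPM in WT mice, and its part in the C1q values was not tested. Among the 11 libraries without Y-linked RNA, the log2 fold change between zQ175 (n = 2) and WT (n = 4) was -0.22 for C1qa (SE 0.140), -0.34 for C1qb (SE 0.179) and -0.30 for C1qc (SE 0.174). Among the 7 libraries with Y-linked RNA it was -1.05 for C1qa (SE 0.224), -0.72 for C1qb (SE 0.238) and -0.83 for C1qc (SE 0.195). That fit had 1 WT mouse, so these SE hold no spread between WT mice. The libraries were split after the values were seen, so the split describes the same mice and is no separate evidence. With Y-linked RNA as a term in the fit of all 18 mice, the values were -0.57, -0.52 and -0.52. There 0 of the 9 genes passed, against 26 of 20914 genes, with the lowest edgeR adjusted p at 0.134. Of the 9, 4 had an unadjusted edgeR p under 0.05, against 2391 of 20914 genes. Whether the zQ175 difference in C1q depends on sex was not tested.

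**Figure D3:**
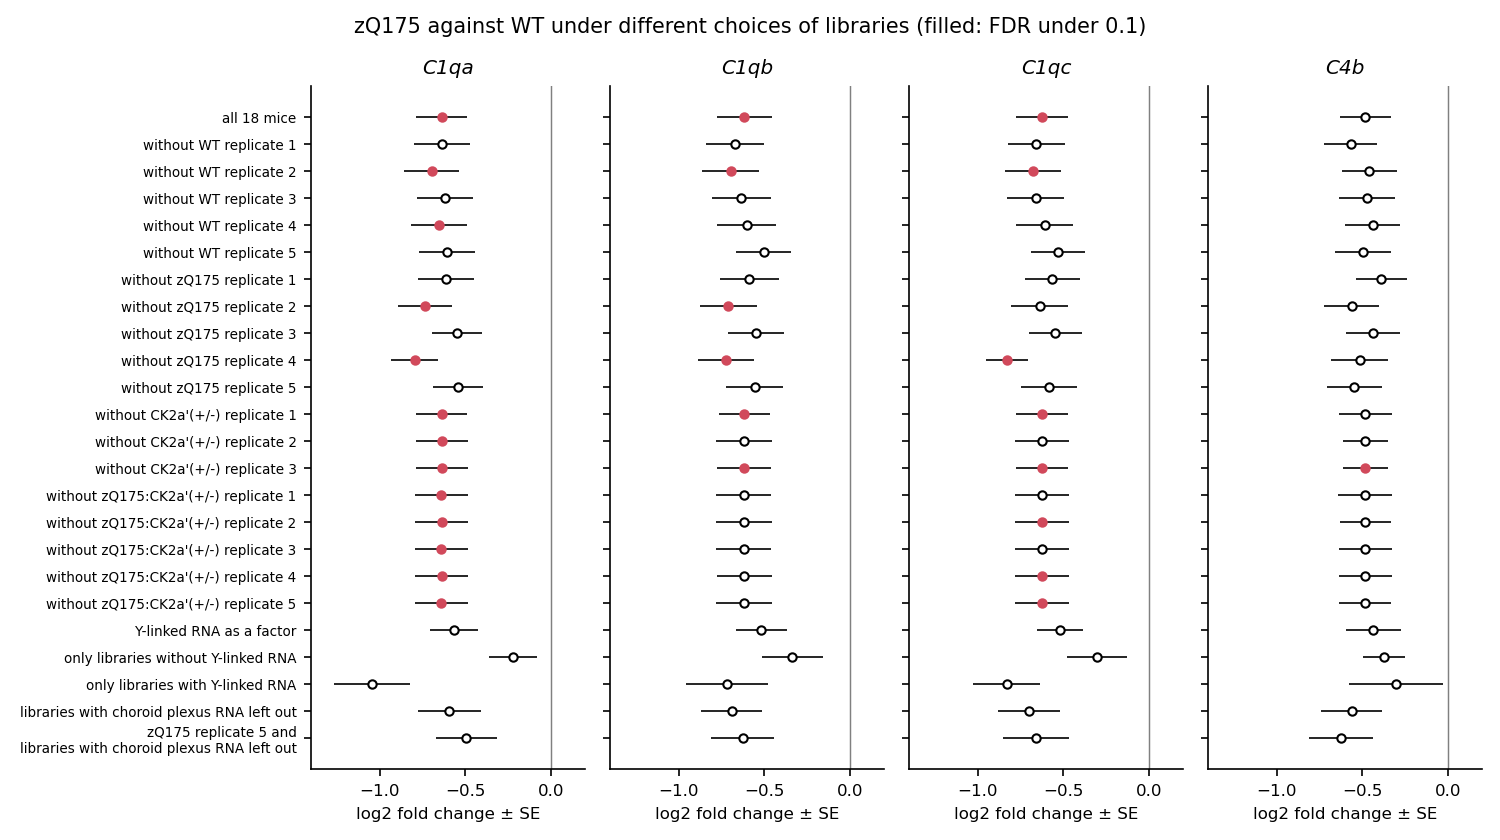
Log2 fold change ± SE of zQ175 against WT for C1qa, C1qb, C1qc and C4b in the fit of all 18 mice, in the 18 fits that leave out 1 mouse, and in 5 fits chosen after seeing the data. All points lie below 0, filled points passed FDR 0.1, and the C1q values lie nearest to 0 (-0.34 to -0.22) among the libraries without Y-linked RNA.

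Markers of other cells moved in the same comparison. Of 17 microglia markers tested, 16 had negative log2 fold changes between zQ175 and WT mice, with a median of -0.16 against 0.00 over all genes, and 0 passed by edgeR or DESeq2, with 3 at an unadjusted p under 0.05. Cx3cr1, P2ry12 and Tmem119, receptors and a surface protein of resting microglia, had log2 fold changes of -0.22, -0.15 and -0.19. Tyrobp, the signalling adaptor of microglial receptors, had -0.60 (SE 0.219, edgeR adjusted p = 0.207). The summed level of the 18 markers was 364 to 439 CPM in WT, 304 to 404 CPM in zQ175, 359 to 442 CPM in CK2a'(+/-) and 394 to 421 CPM in zQ175:CK2a'(+/-) mice. The sum of the 3 C1q chains was 24.7% ± 2.23 (SD, n = 5) of that marker sum in WT mice and 18.1% ± 3.25 (SD, n = 5) in zQ175 mice, and 20.8% ± 1.68 (SD, n = 3) and 21.1% ± 1.61 (SD, n = 5) in CK2a'(+/-) and zQ175:CK2a'(+/-) mice. The oligodendrocyte markers Mbp, Mobp and Cnp fell in zQ175 mice, 3 of 6 tested against 1.1% of all genes called, and the 6 markers summed to 2772 to 4195 CPM against 4296 to 5591 CPM in WT, with no overlap. All 6 oligodendrocyte markers had negative log2 fold changes (median -0.39), 4 at an unadjusted edgeR p under 0.05, against 13.9% of all genes. The striatal neuron markers Ppp1r1b, Penk and Adora2a also fell, 3 of 8 tested. All 8 were negative (median -0.66), 7 at such a p. The cortical marker Tbr1 rose, 1 of 5 tested, and all 5 were positive (median 1.61) and at such a p. The 5 choroid plexus markers all had negative log2 fold changes (median -4.03), with 0 passed by edgeR, 1 called by DESeq2 and 3 at an unadjusted edgeR p under 0.05. Without the 4 libraries with choroid plexus RNA, the log2 fold changes between zQ175 and WT mice were -0.59 for C1qa (SE 0.186), -0.69 for C1qb (SE 0.178) and -0.70 for C1qc (SE 0.181). There the edgeR adjusted p was at least 0.496, and 1 of 21312 genes passed over all. The part of the other cell type differences in the C1q values was not tested.

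Between zQ175 and zQ175:CK2a'(+/-) mice, which addresses the loss of the CK2a' allele on the zQ175 background, 0 of the 9 genes passed by edgeR or DESeq2, against 0.0143% and 0.146% of all genes, and 5 of 9 had an unadjusted p under 0.05, against 6.27%. When each mouse was left out, 3 to 5 had such a p by edgeR. The count was 3 without zQ175 replicate 3 (1281 of 20830 genes) or zQ175:CK2a'(+/-) replicate 4 (1180 of 20803 genes). C1qa was lower in zQ175 by a log2 fold change of -0.46 (95% interval -0.77 to -0.15), C1qb by -0.34 (-0.67 to -0.0047) and C1qc by -0.47 (-0.79 to -0.15), with edgeR adjusted p of at least 0.597. Markers of other cells had mostly the same sign of log2 fold change within the lists that follow. Of 17 microglia markers 15 had negative log2 fold changes (median -0.21) and 7 had an unadjusted edgeR p under 0.05, of 6 oligodendrocyte markers all 6 were negative (median -0.29) and 4 had such a p, and of 5 cortical neuron markers all 5 were positive (median 1.45) and 4 had such a p. The 5 choroid plexus markers were all negative (median -3.89), and 4 had such a p. None of these passed by edgeR, DESeq2 called 2 of the cortical and 1 of the choroid plexus markers, and without the 4 libraries with choroid plexus RNA the C1q values were -0.45 (SE 0.173), -0.30 (SE 0.167) and -0.44 (SE 0.169). The part of the other markers in the C1q values was not tested. For C1qa 4 of the 5 zQ175 mice were below all 5 zQ175:CK2a'(+/-) mice. The 3 zQ175 mice with the lowest C1q were those with Y-linked RNA, as given above, so a split by it is a description of the same mice and no separate evidence. Among the libraries without Y-linked RNA (2 zQ175 and 4 zQ175:CK2a'(+/-)) they were -0.06 for C1qa (SE 0.139), -0.0068 for C1qb (SE 0.178) and -0.15 for C1qc (SE 0.174), and among those with it (3 and 1) they were -0.81 (SE 0.228), -0.66 (SE 0.240) and -0.68 (SE 0.197). With Y-linked RNA as a term in the fit of all mice they were -0.39, -0.25 and -0.36. Of the 9 genes, 3 had an unadjusted edgeR p under 0.05 there, against 1023 of 20914 genes. zQ175:CK2a'(+/-) against WT mice gave -0.18 (-0.49 to 0.13) for C1qa, -0.28 (-0.61 to 0.05) for C1qb and -0.15 (-0.47 to 0.16) for C1qc. This comparison shares the WT mice with that of zQ175 and WT mice, and the zQ175:CK2a'(+/-) mice with that of zQ175 and zQ175:CK2a'(+/-) mice. Here 0 of the 9 genes passed, against 0.0143% of all genes by edgeR and 0.722% by DESeq2, and 0 had an unadjusted p under 0.05 by edgeR, against 9.13%.

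CK2a'(+/-) against WT mice gave -0.21, -0.20 and -0.32 for C1qa, C1qb and C1qc, with intervals that included 0. There 0 of the 9 genes passed, against 0.0143% of all genes by edgeR and 0.0293% by DESeq2, and 0 had an unadjusted p under 0.05 by edgeR, against 4.48%. zQ175:CK2a'(+/-) against CK2a'(+/-) mice gave 0.03, -0.08 and 0.17, also with intervals that included 0. There 0 of the 9 genes passed, against 0.593% of all genes by edgeR and 1.63% by DESeq2, and 2, C3 and Itgam, had an unadjusted p under 0.05, against 9.19%. Without CK2a'(+/-) replicate 1, 0 of the 9 had such a p by edgeR (1953 of 21760 genes). Without the libraries with choroid plexus RNA it was also 0 (1667 of 21312 genes). The difference between the zQ175 effect with 1 and with 2 CK2a' alleles (the interaction) was 0.67 (0.19 to 1.15) for C1qa, 0.54 (0.03 to 1.05) for C1qb and 0.79 (0.30 to 1.28) for C1qc on the log2 scale. Across all genes this did not pass, with edgeR adjusted p of 0.832, 0.916 and 0.811, and 0 of the 9 genes passed, against 0.00478% of all genes by edgeR and 0.0747% by DESeq2, while 3 of 9, the C1q chains, had an unadjusted p under 0.05 against 5.39%. Among the libraries without Y-linked RNA, with 1 CK2a'(+/-) mouse, the interaction was 0.20 for C1qa (SE 0.228), 0.03 for C1qb (SE 0.289) and 0.27 for C1qc (SE 0.284). Among those with it, with 1 WT and 1 zQ175:CK2a'(+/-) mouse, it was 1.09 (SE 0.335), 0.79 (SE 0.353) and 1.03 (SE 0.289). With Y-linked RNA as a term it was 0.48 (SE 0.226), 0.32 (SE 0.236) and 0.55 (SE 0.216), and C1qb was no longer at an unadjusted edgeR p under 0.05. Without the libraries with choroid plexus RNA it was 0.54 (SE 0.293), 0.40 (SE 0.281) and 0.73 (SE 0.287), with an unadjusted edgeR p under 0.05 for C1qc alone among the C1q chains.

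**Figure D4:**
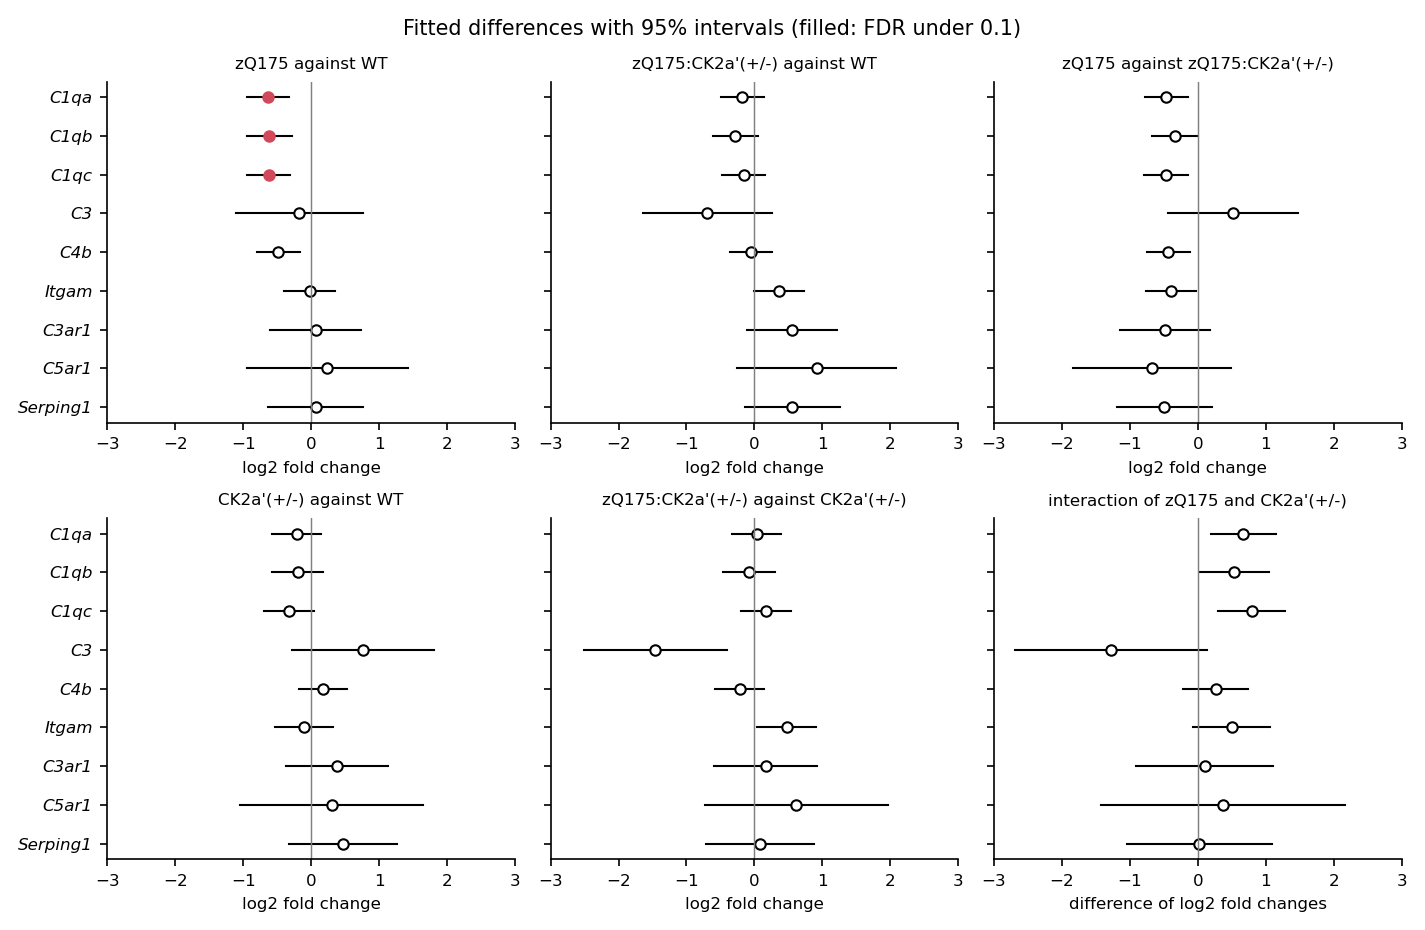
Fitted log2 fold change of each of the 9 genes with its 95% interval in the 5 comparisons of genotypes and, in the last panel, the difference of the zQ175 effects with 1 and with 2 CK2a' alleles. The 3 filled points, C1qa, C1qb and C1qc between zQ175 and WT mice, passed FDR 0.1.

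C4b, which encodes the mouse C4 protein that C1 cleaves, was lower in zQ175 mice than in every zQ175:CK2a'(+/-) mouse. It was at 48.2, 66.1, 61.4, 66.8 and 57.5 CPM in WT mice and at 31.5, 50.7, 36.04, 46.4 and 50.3 CPM in zQ175 mice. It was at 64.8, 89.9 and 47.7 CPM in CK2a'(+/-) mice and at 59.3, 67.8, 52.3, 58.8 and 52.1 CPM in zQ175:CK2a'(+/-) mice. Groups without overlap were found in 1.14% of all genes in that comparison, and the log2 fold change was -0.43 (SE 0.151, edgeR adjusted p = 0.614). Against WT mice, C4b in zQ175 mice had a log2 fold change of -0.48 (95% interval -0.79 to -0.17), with adjusted p = 0.153 by edgeR and 0.0657 by DESeq2. WT replicate 1 lay inside the zQ175 range, and CK2a'(+/-) replicate 2, at 89.9 CPM, was the highest of the series. C4b was -0.37 (SE 0.122) among the libraries without and -0.30 (SE 0.273) among those with Y-linked RNA. The related C4a had a log2 fold change of -0.79 between zQ175 and WT mice (SE 0.292, edgeR adjusted p = 0.221).

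C3, the central component on which all activation routes meet, was low and variable. It was at 5.13, 2.46, 4.02, 0.533 and 2.27 CPM in WT mice and at 0.984, 3.59, 2.58, 1.45 and 4.09 CPM in zQ175 mice. It was at 6.77, 4.29 and 3.54 CPM in CK2a'(+/-) mice and at 0.901, 1.87, 1.35, 2.34 and 2.40 CPM in zQ175:CK2a'(+/-) mice, so that all zQ175:CK2a'(+/-) mice were below all CK2a'(+/-) mice, as in 8.34% of genes in that comparison. There the log2 fold change was -1.46 (95% interval -2.51 to -0.40, edgeR adjusted p = 0.306), and with only these 2 groups in the fit the edgeR adjusted p was 0.0570. The 2 highest WT mice and the highest CK2a'(+/-) mouse were libraries with choroid plexus RNA, while zQ175:CK2a'(+/-) replicate 2, which held the most, was at 1.87 CPM. Without the 4 libraries with choroid plexus RNA, the log2 fold change of C3 was -1.16 (SE 0.576) between zQ175:CK2a'(+/-) and CK2a'(+/-) mice, and that between zQ175 and WT mice turned from -0.18 (SE 0.450) to 0.54 (SE 0.514).

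The receptors were not called in any comparison. Itgam encodes the alpha chain of CR3, the receptor for C3 fragments on microglia. It was at 8.62, 8.27, 7.35, 8.08 and 7.41 CPM in WT mice and at 5.81, 5.97, 6.52, 11.8 and 9.14 CPM in zQ175 mice. It was at 6.31, 8.40 and 7.41 CPM in CK2a'(+/-) mice and at 11.99, 9.12, 10.04, 11.1 and 9.01 CPM in zQ175:CK2a'(+/-) mice. All 5 zQ175:CK2a'(+/-) mice were above all WT mice, as in 1.84% of genes in that comparison in either direction, and above all CK2a'(+/-) mice, as in 8.34%. The log2 fold changes were 0.37 (95% interval -0.00053 to 0.74) and 0.48 (0.04 to 0.91), with edgeR adjusted p of 0.547 and 0.481. zQ175 mice fell on both sides of the WT range, with 3 below and 2 above it, and the log2 fold change was -0.02 (-0.39 to 0.35). Itgb2, which encodes the beta chain that pairs with Itgam, had log2 fold changes of 0.14 (SE 0.184) between zQ175:CK2a'(+/-) and WT mice and -0.27 (SE 0.186) between zQ175 and WT mice.

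C3ar1, the receptor for the C3a fragment, was at 2.04, 2.23, 1.57, 2.62 and 1.62 CPM in WT mice, and at 2.16, 1.97, 2.77, 2.11 and 1.61 CPM in zQ175 mice. It was at 2.37, 4.46 and 1.00 CPM in CK2a'(+/-) mice and at 1.97, 4.24, 2.39, 3.34 and 2.94 CPM in zQ175:CK2a'(+/-) mice. The groups overlapped in every comparison. The log2 fold change was 0.07 (95% interval -0.60 to 0.74) between zQ175 and WT mice, so a change of about the size seen for C1q would lie within the interval on the higher side and just outside it on the lower side. C5ar1, the receptor for the C5a fragment, ranged from 0.150 to 0.749 CPM in WT, from 0.141 to 0.753 CPM in zQ175, from 0.334 to 0.556 CPM in CK2a'(+/-) and from 0.394 to 0.933 CPM in zQ175:CK2a'(+/-) mice. With 3 to 14 reads per library its intervals were wide, -0.95 to 1.42 between zQ175 and WT mice, and differences of the size seen for C1q were not detectable at this depth.

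Serping1 encodes the C1 inhibitor, which blocks the proteases bound to C1q. It was at 3.24, 3.02, 2.79, 1.599 and 1.95 CPM in WT mice and at 4.31, 2.43, 0.800, 2.18 and 3.33 CPM in zQ175 mice. It was at 3.84, 4.29 and 2.27 CPM in CK2a'(+/-) mice and at 2.59, 4.95, 3.06, 3.40 and 4.51 CPM in zQ175:CK2a'(+/-) mice. zQ175 mice spanned both the lowest value of the series and 1 of the highest, and the log2 fold change from WT was 0.07 (95% interval -0.64 to 0.77). It was 0.56 (-0.14 to 1.25) between zQ175:CK2a'(+/-) and WT mice, where the groups also overlapped.

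Across the 18 mice, after the mean of each genotype was subtracted, the members of the C1q complex varied together and the other genes did not follow them detectably. Of 36 pairs of the 9 genes, 3 passed an adjusted p of 0.1 in a two-sided permutation test within genotypes, and these were the 3 pairs of C1q chains. For C1qa and C1qb, Pearson's r was 0.82 (permutation p = 7.0e-05, adjusted p = 0.00126) and Spearman's rho 0.88 (permutation p = 0.000140, adjusted p = 0.00504). For C1qb and C1qc, r was 0.82 (permutation p = 7.0e-05, adjusted p = 0.00126) and rho 0.83 (permutation p = 0.000620, adjusted p = 0.0112). For C1qa and C1qc, r was 0.78 (permutation p = 0.00327, adjusted p = 0.0392) and rho 0.69 (permutation p = 0.0123, adjusted p = 0.148). Without the 2 mice farthest from the median, r was 0.77, 0.78 and 0.51. Outside C1q, r ranged from -0.29 (C1qc with C3) to 0.56 (C1qc with Itgam), and the lowest permutation p was 0.0373 (C4b with C5ar1, r = 0.51, adjusted p = 0.336). The scaling of each library is shared by both genes of a pair.

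**Figure D5:**
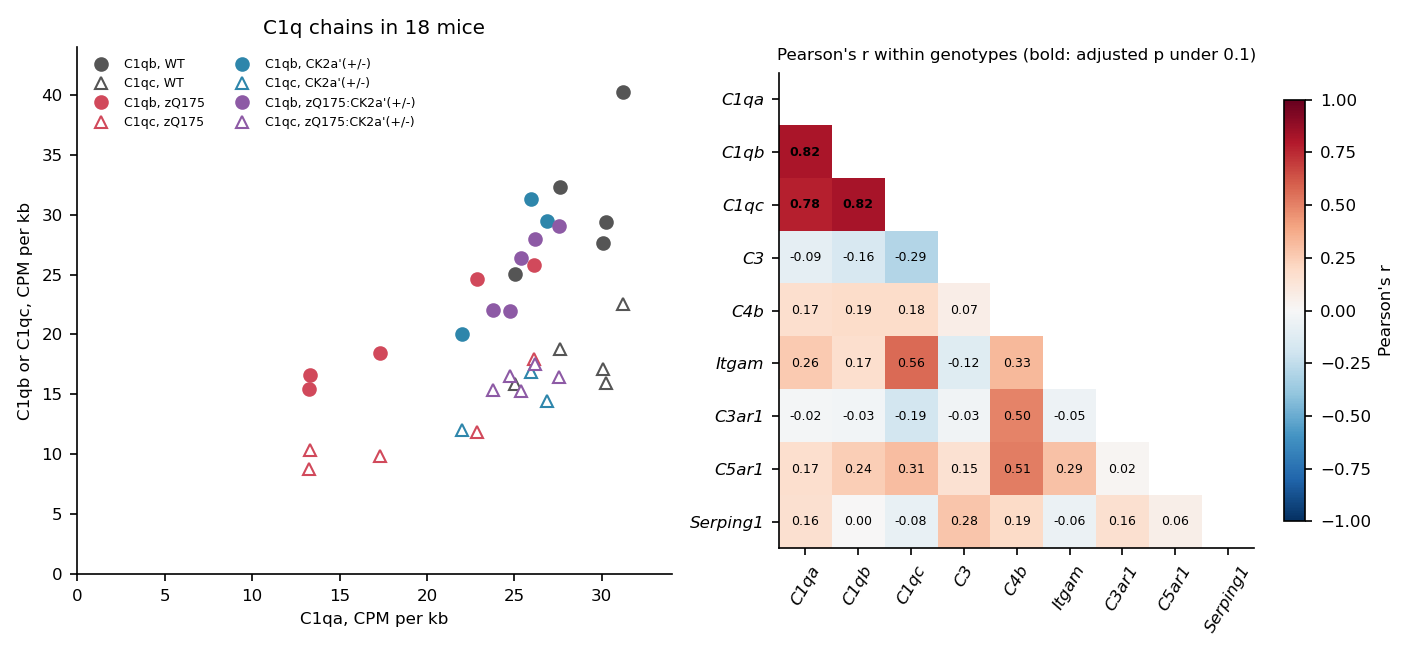
Left, C1qb (circles) and C1qc (triangles) against C1qa in CPM per kb in each of the 18 mice, coloured by genotype. Right, Pearson's r of the log2 CPM of each pair of the 9 genes after the genotype means were subtracted, where the 3 pairs of C1q chains, at 0.78 to 0.82, passed an adjusted p of 0.1.

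Over 16641 genes with a mean of at least 1 CPM, the gene most like the mean log2 CPM of the C1q chains over the 18 libraries was Atp5o, a subunit of the mitochondrial ATP synthase, with Pearson's r of 0.88. The next were Gm26881 (0.87), Gpx4 (0.87), Ctsb (0.86), Gpx4-ps2 (0.85), Gm45447 (0.84), Txn2 (0.84), Pde6d (0.84), S100a1 (0.83) and Cystm1 (0.83). Ctsb encodes a lysosomal protease, and Gpx4 and Txn2 encode antioxidant proteins. Gpx4-ps2 is a pseudogene of Gpx4, so reads that match both may be missing from their counts. The 17 microglia markers tested had a median r of 0.33, from 0.0064 for P2ry13 to 0.82 for Csf1r, and 10 of them were below 0.4. Cx3cr1, P2ry12 and Tmem119 were at 0.55, 0.47 and 0.28. These values describe 18 shared libraries of 4 genotypes and include the difference between genotypes.

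Of 54 other complement genes listed by role, 32 had enough reads to be tested. Clu, which encodes clusterin, an astrocyte-rich inhibitor of the terminal complex, passed between zQ175 and WT mice, 1 of 32 against 1.1% of all genes. It was at 347 to 464 CPM (median 399) in WT and at 284 to 329 CPM (median 297) in zQ175 mice, with no overlap, as in 2.44% of all genes, and fell by 0.41 on the log2 scale (SE 0.0944, edgeR adjusted p = 0.0613). Clu did not pass with only WT and zQ175 mice in the fit (edgeR adjusted p = 0.153), nor without WT replicate 1 or 3 or zQ175 replicate 1, 3 or 5 (0.104 to 0.167), and its log2 fold change was -0.29 (SE 0.0835) without the libraries with choroid plexus RNA. In zQ175:CK2a'(+/-) mice it was at 280 to 401 CPM, with a log2 fold change of -0.33 from WT (SE 0.0943, edgeR adjusted p = 0.307). The median log2 fold change of the 32 genes was -0.03 between zQ175 and WT mice, with 15 above and 17 below 0. DESeq2 called 3 of the 32 there, Clu, Csmd2 and Cd59a, against 5.15% of genes, and gave no adjusted p for 7 of the 32. Cd59a, a membrane inhibitor of the terminal complex named here after its values were seen, was at 8.16 to 18.5 CPM in WT and at 4.41 to 7.30 CPM in zQ175 mice, with no overlap, as in 2.44% of all genes (log2 fold change -0.9998, SE 0.283, adjusted p = 0.116 by edgeR and 0.0242 by DESeq2).

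Csmd2, a large membrane protein with complement control domains, rose in zQ175:CK2a'(+/-) against CK2a'(+/-) mice, 1 of 32 against 0.593% of all genes. It was at 63.4 to 81.5 CPM (median 71.2) in zQ175:CK2a'(+/-) and at 46.7 to 56.8 CPM in the 3 CK2a'(+/-) mice, without overlap, as in 8.34% of all genes, and the log2 fold change was 0.47 (SE 0.115, edgeR adjusted p = 0.0989). When each mouse was left out, Csmd2 passed without WT replicate 2, 4 or 5 or zQ175 replicate 1 or 5 and did not pass without any of the other 13 mice, with log2 fold changes of 0.39 to 0.53. In the other 4 contrasts 0 of the 32 genes passed by edgeR or DESeq2. An unadjusted edgeR p under 0.05 was found for 6 of the 32 between zQ175 and WT mice (13.9% of all genes) and for 5 between zQ175:CK2a'(+/-) and CK2a'(+/-) mice (9.19%). It was found for 1 between zQ175:CK2a'(+/-) and WT mice (9.13% of all genes) and for 3 between zQ175 and zQ175:CK2a'(+/-) mice (6.27%). The count was 3 between CK2a'(+/-) and WT mice (4.48%) and 5 in the interaction (5.39%).

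By role, the classical proteases C1ra, C1rb, C1s1 and C1s2, which carry the signal from C1q, had 1 to 99 reads over all 18 libraries, and C2 had 162. Of the lectin pathway, Colec12 (2123 reads in all) and Masp1 (1205) were the most abundant per length, with log2 fold changes between zQ175 and WT mice of 0.25 (SE 0.206) and 0.48 (SE 0.244). Cfp, which encodes properdin, was the main alternative pathway gene, at 3.41 CPM per kb, with 0.06 (SE 0.172), while Cfb had 35 reads and Cfd had 0. The terminal components were almost absent, with 0 reads for C6 and C9, and C7 and C8g at 0.105 and 0.192 CPM per kb. The regulators spanned a wide range, from Clu at 102 and Sez6 at 59.1 CPM per kb down to Cfi and C4bp with 8 and 11 reads in all, and Sez6 had a log2 fold change of -0.23 (SE 0.124). Among other receptors, Calr and Lrp1, which bind C1q-tagged cargo among many other ligands, were at 84.3 and 38.5 CPM per kb and had log2 fold changes of -0.13 (SE 0.0913) and 0.06 (SE 0.0694).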

How the data were processed

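Striatal RNA of 18 mice was sequenced by the authors as 50-base paired reads from a stranded total RNA kit, and per the submitters' processing notes the reads were handled with FastQC, Trimmomatic, HISAT2 2.1.0 and Subread 1.6.2 against GRCm38. The methods add that multiply mapped reads and those of low mapping quality were removed, which lowers counts in near-identical genes such as C4a and C4b. The deposited table holds raw read counts per gene and, in another column, the exon length per gene in bases as the authors gave it. The annotation release, strand setting and treatment of reads in overlapping genes are not given in the sources used here. Gene symbols were matched by Ensembl identifier to GENCODE M21 (99.5% of identifiers).

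Genotypes came from the sample titles. Counts were filtered with filterByExpr, scaled by TMM (factors 0.935 to 1.05) and fitted with edgeR 4.0.16 in R 4.3.3 by the quasi-likelihood test, all 18 libraries in 1 fit with genotype as the only term, and Benjamini-Hochberg adjustment over 20914 genes at FDR 0.1. The study's tool, DESeq2 1.42.0 with default settings, was an alternative, as were other size factors, other filters, only the compared groups, a robust fit, a block by replicate number, a covariate for Xist, FDR 0.05 and leaving out each mouse. The relations used 100000 permutations within genotypes. Scripts were tested on simulated data. The standard error is the log2 fold change divided by the root of F, and intervals are 95%. The labels name no dissection or library batch.

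The 9 genes and all gene lists were chosen with earlier results of these data known. The named genes were the 9 genes, in each role of the other complement genes the 2 most abundant per length and any that passed, the first 3 and any passing cell type markers, and the 10 genes most like C1q. Outside this rule, and after their values were seen, Cd59a, Itgb2, Tyrobp, Csf1r, P2ry13, C1ra, C1rb, C1s1, C1s2, Cfd, C6, C9, Cfi and C4bp are also named. For microglia, oligodendrocyte, striatal and cortical neuron and choroid plexus markers, counts of genes are given where they moved with a result, and 1 oligodendrocyte marker is not reported here and was left out of its list. Besides those in the report, border macrophage markers summed to 4.21 to 8.57 CPM, monocyte and neutrophil markers to 0 to 0.788, astrocyte markers to 2789 to 4187, endothelial and pericyte markers to 119 to 199.9, fibroblast markers to 9.62 to 26.3 and striatal neuron markers to 1011 to 4724 CPM.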

Additional observations from a re-analysis of the deposited data

Results flagged for a closer look

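A library that stood apart from the other mice of its genotype was looked for in the genotypes with 5 mice, for the 9 genes and for the summed levels of the marker lists, with Dixon's gap test at the 95% level (critical value 0.710). Of 57 such groups, 5 had a library beyond it, and chance flags about 1 in 20. None was a level of one of the 9 genes. The summed cortical excitatory neuron markers were 319 CPM in zQ175 replicate 5, one of the 3 zQ175 mice with low C1q. The summed choroid plexus markers were 3083 CPM in zQ175:CK2a'(+/-) replicate 2. The summed oligodendrocyte markers were lowest among the zQ175:CK2a'(+/-) mice in replicate 4, at 3144 CPM. The summed fibroblast markers were 26.3 CPM in WT replicate 3 and 22.96 CPM in zQ175 replicate 1. The part of these differences in the levels of the complement genes was not tested.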

How the results depend on the processing

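Of the 9 genes, 3 passed between zQ175 and WT mice. The count was 0 with only the compared groups in the fit (0 of 18529 over all genes) and 0 at FDR 0.05 (51 of 20914). Of 5 fits chosen after seeing the data, it was 0 with Y-linked RNA as a factor (26 of 20914 over all genes). It was also 0 with the libraries with choroid plexus RNA left out (1 of 21312) and with these and zQ175 replicate 5 left out (1 of 21192). The others, only libraries without Y-linked RNA and only libraries with it, leave 1 mouse in a group and are given as effect sizes. The count was 0 to 4 when each mouse was left out, where 0 to 587 genes passed over all. With the replicate number as a block it was 2 (98 of 20914 over all genes), where C1qb had an edgeR adjusted p of 0.103. With the Xist level as covariate C1qb had an edgeR adjusted p of 0.104, and 161 of 20914 genes passed. A correlation of deviations above 0.1 was found in 2 of 24 same-numbered pairs of mice and in 13 of 96 different-numbered pairs. No pairing by number was seen, though a weak one could go undetected. In zQ175:CK2a'(+/-) against CK2a'(+/-) mice the count rose from 0 to 1 (C3) with only those groups in the fit, where 461 of 18974 genes passed. Of the other complement genes, 1 (Clu) passed between zQ175 and WT mice. The count was 3 with DESeq2 (847 of 16443 over all genes), 2 without a filter (451 of 37580), 0 with only the compared groups and 0 at FDR 0.05. It was 0 with Y-linked RNA as a factor, 0 in the fits that leave out the libraries with choroid plexus RNA, and 0 to 2 when each mouse was left out. It stayed 1 under the replicate block, where Clu itself had an adjusted p of 0.114. Between zQ175:CK2a'(+/-) and CK2a'(+/-) mice the count of 1 (Csmd2) was 0 with at least 10 counts in 10% of the libraries (121 of 22068 over all genes). It was 0 under the replicate block (12 of 20914), with the Xist covariate (75 of 20914) and at FDR 0.05 (27 of 20914). With Y-linked RNA as a factor it was 0 (83 of 20914), as in the fits that leave out the libraries with choroid plexus RNA (14 of 21312 and 17 of 21192). When each mouse was left out it was 0 to 1 (6 of 21772 to 221 of 20840). Between zQ175 and zQ175:CK2a'(+/-) mice the count rose from 0 to 1 without a filter (51 of 37580). The pairwise relations gave 2 or 3 passing pairs when each mouse was left out.

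Under the alternatives other than leaving out mice and the 5 later fits, the sign of 3 log2 fold changes of the 9 genes turned, with Serping1 between zQ175 and WT mice at -0.0059 under the replicate block and -0.063 with the Xist covariate, and C1qa between zQ175:CK2a'(+/-) and CK2a'(+/-) mice at -0.0505 with the Xist covariate. In the 5 later fits 35 of 270 turned, 10 of them between zQ175 and WT mice, and none of a C1q chain between zQ175 and WT or zQ175:CK2a'(+/-) mice. When each mouse was left out, the log2 fold changes that turned sign were, between zQ175 and WT mice, those of C3 (-0.45 to 0.13), C3ar1 (-0.0538 to 0.18), C5ar1 (-0.0513 to 0.61), Itgam (-0.22 to 0.0713) and Serping1 (-0.19 to 0.28). Between zQ175:CK2a'(+/-) and CK2a'(+/-) mice they were C1qa (-0.048 to 0.0922), C1qb (-0.25 to 0.0403), C3ar1 (-0.21 to 0.80), C4b (-0.42 to 0.0431) and Serping1 (-0.14 to 0.27). Between CK2a'(+/-) and WT mice they were C3ar1 (-0.24 to 0.76) and C4b (-0.0903 to 0.37), and in the interaction C3ar1 (-0.27 to 0.73), C5ar1 (-0.00029 to 0.66) and Serping1 (-0.22 to 0.28). None of these passed in the reported fit, and the cause was not tested. Over all genes, the 230 that passed between zQ175 and WT mice became 847 with DESeq2, 451 without a filter, 98 with the block, 51 at FDR 0.05 and 0 with only the compared groups. The 124 of zQ175:CK2a'(+/-) against CK2a'(+/-) mice became 327, 297, 12, 27 and 461. When each mouse was left out, these 124 became 6 (without CK2a'(+/-) replicate 2) to 221 (without WT replicate 2). Without the libraries with choroid plexus RNA they became 14.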
